A study of Homo sapiens with 14 samples.

Results

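The AU-rich mRNA decay and stability factors were 8 genes whose proteins bind short sequence signals in the 3′ ends of mRNAs and set how long those mRNAs last: ZFP36, ZFP36L1, ZFP36L2, RC3H1, KHSRP, HNRNPD, ELAVL1 and TIA1. Every probe set whose only gene symbol in the platform annotation was 1 of these 8 symbols was taken, which gave 25 of the 22283 probe sets of the array, and 8 of the 11963 genes that a single symbol names. All 8 genes had at least 1 probe set, and 20 of the 25 probe sets passed a filter on low signals and were tested. The rule uses gene names and no measured value, but the genes were picked with earlier results of these data known.

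Many short-lived mRNAs, among them those of cytokines, chemokines and immediate early genes, carry AU-rich elements built around the pentamer AUUUA in their 3′ untranslated region. The ZFP36 family of CCCH zinc finger proteins binds these elements and recruits the CCR4-NOT complex, which removes the poly(A) tail and so starts decay. Other binders of the same kind of element promote decay (KHSRP), hold the mRNA stable (ELAVL1) or keep it from being translated (TIA1), so that the fate of an mRNA depends on which of them it meets. In blood cells the ZFP36 family is known for restraining inflammatory mRNAs.

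The groups compared differ by the siRNA the cells received, and the strands are shown because they define the knockdown and its control. The bases in capitals are the seed, positions 2 to 8 of the antisense strand counted from its 5′ end, and the 3′ deoxythymidine overhangs are left out.
AML1-ETO sense: ccucgaaaucguacugaga
AML1-ETO antisense: uCUCAGUAcgauuucgagg
luciferase sense: cguacgcggaauacuucga
luciferase antisense: uCGAAGUAuucggcguacg
All 19 positions of the AML1-ETO strands were complementary. As the labels give them, 18 of the 19 positions of the luciferase strands were complementary and 1 was not, with C12G between the complement of the sense strand and the antisense strand as given.

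The 14 single-colour arrays read RNA of Kasumi-1 cells after 96 h. Kasumi-1 is an established line from a human acute myeloid leukaemia and carries AML1-ETO, the fusion of RUNX1 with RUNX1T1. The AML1-ETO siRNA was delivered with the lipid reagent siLentFect (Biorad) at 240 nM on 3 arrays and by Amaxa nucleofection, an electrical transfection, at 1.5 µM on 3 arrays. The firefly luciferase siRNA was delivered the same way on 3 lipid and 2 nucleofection arrays. Cells nucleofected without an siRNA gave 1 array, and untransfected cells gave 2. The siRNA dose differed between the methods, so that dose and method cannot be told apart. All cells carried the fusion and came from 1 line, and the labels did not say whether replicates were separate cultures. The p-values are therefore set against the spread of these arrays alone, which may be technical, and fewer cells of a type and less RNA per cell cannot be told apart.

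Of the myeloid blast markers, 9 of 9 on the array had a mean signal of at least 20, the level used as a floor, and their summed signal lay between 8091 and 10648 on every array. MPO alone read 4784 to 7572 and KIT 1617 to 2297, so that the sum says little about the other markers. Between the methods 2 of the 9 were higher and 1 was lower by lipid at an adjusted p below 0.05, where 22.6% of all tested were called. Of the 6 lymphoid markers on the array 3 had a mean of at least 20, and of the 3 erythroid markers 1 had, with summed signals of 97.8 to 228 and 56.5 to 95.5. The siRNA lowered its target by the RUNX1T1 probe set of highest mean, which fell by 0.79 on the log2 scale when both methods were averaged (adjusted p = 0.00413). In mean signal the fall was larger by nucleofection. Mean RUNX1T1 signal dropped from 704 in the luciferase control to 299 under nucleofection, and from 556 to 443 under lipid. It was 566 in untransfected cells and 582 on the array without siRNA. For the difference of the effect between the methods, 0 of the 9 blast markers, RUNX1T1 among them, had an adjusted p below 0.05. Under lipid the arrays did not overlap, but the fall did not reach an adjusted p below 0.05.

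ZFP36L2, a decay factor of the ZFP36 family with a known role in blood cell precursors, was the member that rose when AML1-ETO was targeted. Its probe set of highest mean, 201368_at, read 719, 782 and 817 with AML1-ETO siRNA by nucleofection and 334 and 336 with luciferase siRNA. By lipid it read 682, 617 and 772 with AML1-ETO siRNA and 526, 539.5 and 538 with luciferase siRNA. In both methods every AML1-ETO array was above every luciferase array, and the luciferase arrays of a method lay close together. Averaged over both methods the rise was 72.1%, or 0.78 in log2 units with an SE of 0.11 (adjusted p = 0.0032).

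The other ZFP36L2 probe sets had differences of similar size. Probe set 201367_s_at rose by 0.85 (SE 0.15, adjusted p = 0.015), and 201369_s_at was at 0.79 (SE 0.18), just short of the threshold (adjusted p = 0.0566). By nucleofection 201367_s_at read 81.7, 127 and 93.7 with AML1-ETO siRNA and 37.4 and 43.5 with luciferase siRNA. For 201369_s_at the AML1-ETO arrays read 81.2, 104 and 121 by nucleofection and 180.5, 186 and 157 by lipid, against luciferase arrays of 68.0 and 55.0 by nucleofection and 76.9, 133 and 85.5 by lipid. Over the 3 probe sets and both methods, the siRNA groups overlapped for 201367_s_at by lipid and did not in the other 5 cases. Being higher without overlap by both methods was found for 2 of the 20 members, 201368_at and 201369_s_at, and for 1.02% of all probe sets tested. Over the 14 arrays the 3 probe sets followed each other with Pearson's r of 0.86, 0.77 and 0.74, as a description of arrays that share their groups.

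**Figure D1:**
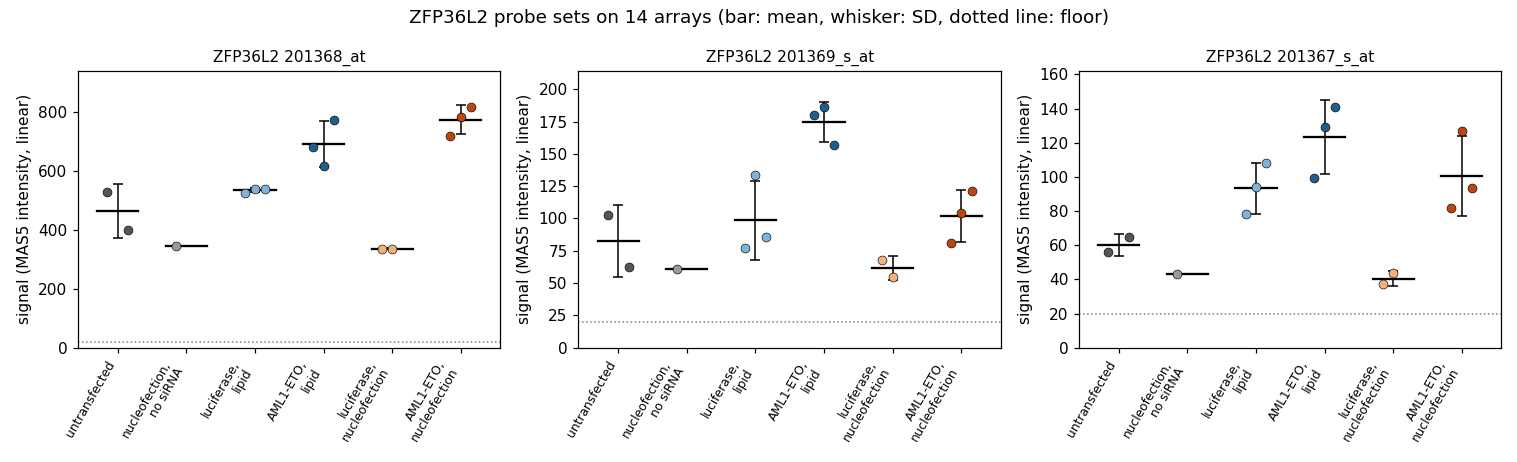
Signal of the 3 ZFP36L2 probe sets on each of 14 arrays (y axis, linear MAS5 intensity from 0) in the 6 groups (x axis), with the group mean as a bar, the SD as a whisker and the floor of 20 as a dotted line. For 201368_at the AML1-ETO arrays lie between 617 and 817, above all luciferase, untransfected and no-siRNA arrays, which reach 539.5 at most. For 201369_s_at the AML1-ETO nucleofection arrays, at 81.2 to 121, overlap the untransfected arrays, at 62.8 and 102.

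Among the 20 tested member probe sets 2 were called for the mean of both methods, both of ZFP36L2 and both higher. A call is an adjusted p (Benjamini-Hochberg, over all probe sets tested, from limma) below 0.05. Of the 13329 probe sets tested 1.24% were called, 0.855% higher and 0.383% lower. The median difference of the 20 was −0.10, beside −0.07 over all probe sets tested. The call of 201368_at held in 24 of 25 alternatives and was lost with the untransfected arrays as controls (adjusted p = 0.0835). That of 201367_s_at held in 21 of 24, and was lost without luciferase nucleofection replicate 1 (adjusted p = 0.0747), with the untransfected arrays as controls (0.0881) and with a floor of 64 (0.113).

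By nucleofection alone the same ZFP36L2 probe sets were called. Probe set 201368_at rose by 1.20 (SE 0.17, adjusted p = 0.0024), a 2.30-fold difference, and 201367_s_at by 1.30 (SE 0.23, adjusted p = 0.0107), a 2.45-fold difference, while 201369_s_at was at 0.72 (adjusted p = 0.193). Probe sets 201368_at and 201367_s_at were the 2 of 20 member probe sets called by nucleofection, where 2.1% of all tested were called, 1.29% higher and 0.81% lower. By lipid 201368_at was at 0.36 (95% confidence interval 0.04 to 0.69), 201367_s_at at 0.40 and 201369_s_at at 0.86, and 0 of 20 members were called (2 with an unadjusted p below 0.05), where 0.0675% of all tested were called. The difference of the effect between the methods was −0.84 for 201368_at (interval −1.33 to −0.35, adjusted p = 0.222) and −0.90 for 201367_s_at (adjusted p = 0.318), and neither passed. For 201369_s_at it was 0.14 (interval −0.64 to 0.93). For this comparison 0 of 20 members were called by limma, 5 with an unadjusted p below 0.05, and 0.0525% of all tested were called. Fitted on the nucleofection arrays alone, with 2 and 3 arrays, neither call held (adjusted p = 0.0616 and 0.126).

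ZFP36L2 stood at different levels in the groups without AML1-ETO siRNA. By the mean signal of 201368_at the order was AML1-ETO nucleofection at 773 ± 49.6 (SD, n = 3), AML1-ETO lipid at 690.2 ± 78.0 (SD, n = 3), luciferase lipid at 534 ± 7.51 (SD, n = 3), untransfected at 465 ± 91.7 (SD, n = 2), the array without siRNA at 345 and luciferase nucleofection at 335 ± 1.48 (SD, n = 2). Arrays of the first and second group overlapped, as did those of luciferase lipid and untransfected cells, and the other neighbours did not. Luciferase nucleofection arrays were both below both untransfected arrays of 529.5 and 399.9, a difference of −0.46 that did not pass (adjusted p = 0.167). With the untransfected arrays as controls, a comparison added after the values were seen, 201368_at was higher on the AML1-ETO nucleofection arrays by 0.75 (SE 0.17, adjusted p = 0.0228). By lipid it was at 0.58 (adjusted p = 0.474). The other ZFP36L2 probe sets did not pass. By nucleofection 201367_s_at was at 0.72 (adjusted p = 0.0773) and 201369_s_at at 0.33 (adjusted p = 0.499). By lipid they were at 1.02 (adjusted p = 0.235) and 1.12 (adjusted p = 0.314). For 201369_s_at the AML1-ETO nucleofection arrays of 81.2 to 121 overlapped the untransfected ones of 62.8 and 102. In that comparison 3 of 20 members were called by nucleofection, where 6.26% of all tested were called, and 0 by lipid. The 5 probe sets of other genes most like 201368_at over the 14 arrays were 3 of LST1 (r of 0.97, 0.96 and 0.96), AIF1 (0.96) and CTSG (0.96).

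ZFP36, or tristetraprolin, is the founding member of the family and an immediate early gene. Its only probe set, 201531_at, was dim, with a lowest signal of 15.3, a median of 37.0 and a highest of 70.0 over the 14 arrays. By nucleofection it read 42.1, 70.0 and 54.3 with AML1-ETO siRNA and 34.3 and 33.0 with luciferase siRNA. By lipid it read 41.1, 15.3 and 32.4 with AML1-ETO siRNA and 26.9, 39.8 and 50.7 with luciferase siRNA, so that the groups overlapped by lipid and did not by nucleofection. The difference was 0.69 by nucleofection (SE 0.35, adjusted p = 0.336) and −0.34 by lipid, and neither passed. Groups without overlap are common in the nucleofection comparison, where 35.5% of all tested probe sets and 11 of the 20 members had them. By lipid 9.12% of all tested and 2 of the 20 members had them. Most like it over the 14 arrays were PLAGL1 (r = 0.82), MYCBP2 (0.82), HLA-J (0.80), KDM4C (0.79) and ANXA11 (0.78).

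ZFP36L1 had 4 probe sets, and all 4 lay below the floor of 20 on all 14 arrays. Their highest signals were 17.7 for 211962_s_at, 18.6 for 211965_at, 9.62 for 213277_at and 11.2 for 213284_at. They were not tested, and no difference between groups was measurable for ZFP36L1 on this array.

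RC3H1 encodes roquin, which binds stem-loops in the 3′ ends of immune mRNAs and recruits the same deadenylation machinery. Its only probe set, 215109_at, separated the arrays by transfection method. On the nucleofection arrays it read 101 and 99.0 for luciferase, 66.8, 87.9 and 57.9 for AML1-ETO and 75.1 without siRNA. On the lipid arrays it read 16.6, 24.7 and 37.8 for luciferase and 28.4, 37.6 and 33.8 for AML1-ETO, and untransfected cells read 26.4 and 36.8. Every nucleofection array was above every other array. The difference of lipid against nucleofection was −1.49 (SE 0.18, adjusted p = 0.000237), a 2.82-fold difference, and it held in all 24 alternatives run for it. Luciferase nucleofection was above untransfected cells by 1.68 (SE 0.29, adjusted p = 0.0097), a 3.20-fold difference. This call held in 21 of 24 alternatives, with differences of 0.64 to 1.92 and adjusted p up to 0.153. It was lost with a floor of 64, with the arrays of that comparison alone and without untransfected replicate 1, which left 1 untransfected array. AML1-ETO nucleofection was above untransfected cells by 1.16 (adjusted p = 0.0242), in the comparison added after the values were seen.

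For the knockdown RC3H1 was not called. The difference was −0.52 by nucleofection (SE 0.27, adjusted p = 0.345) and 0.32 by lipid, with −0.10 as the mean of both (95% confidence interval −0.49 to 0.29). In the order of mean signals, luciferase nucleofection stood apart from the array without siRNA, which overlapped AML1-ETO nucleofection. The AML1-ETO lipid, untransfected and luciferase lipid groups followed, apart from those above and overlapping with each other. The probe sets most like it over the 14 arrays were those of RSPH6A (r = 0.94), RAD23B (0.93), CTBP2, ZNF148 and PSMD4 (0.92 each).

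**Figure D2:**
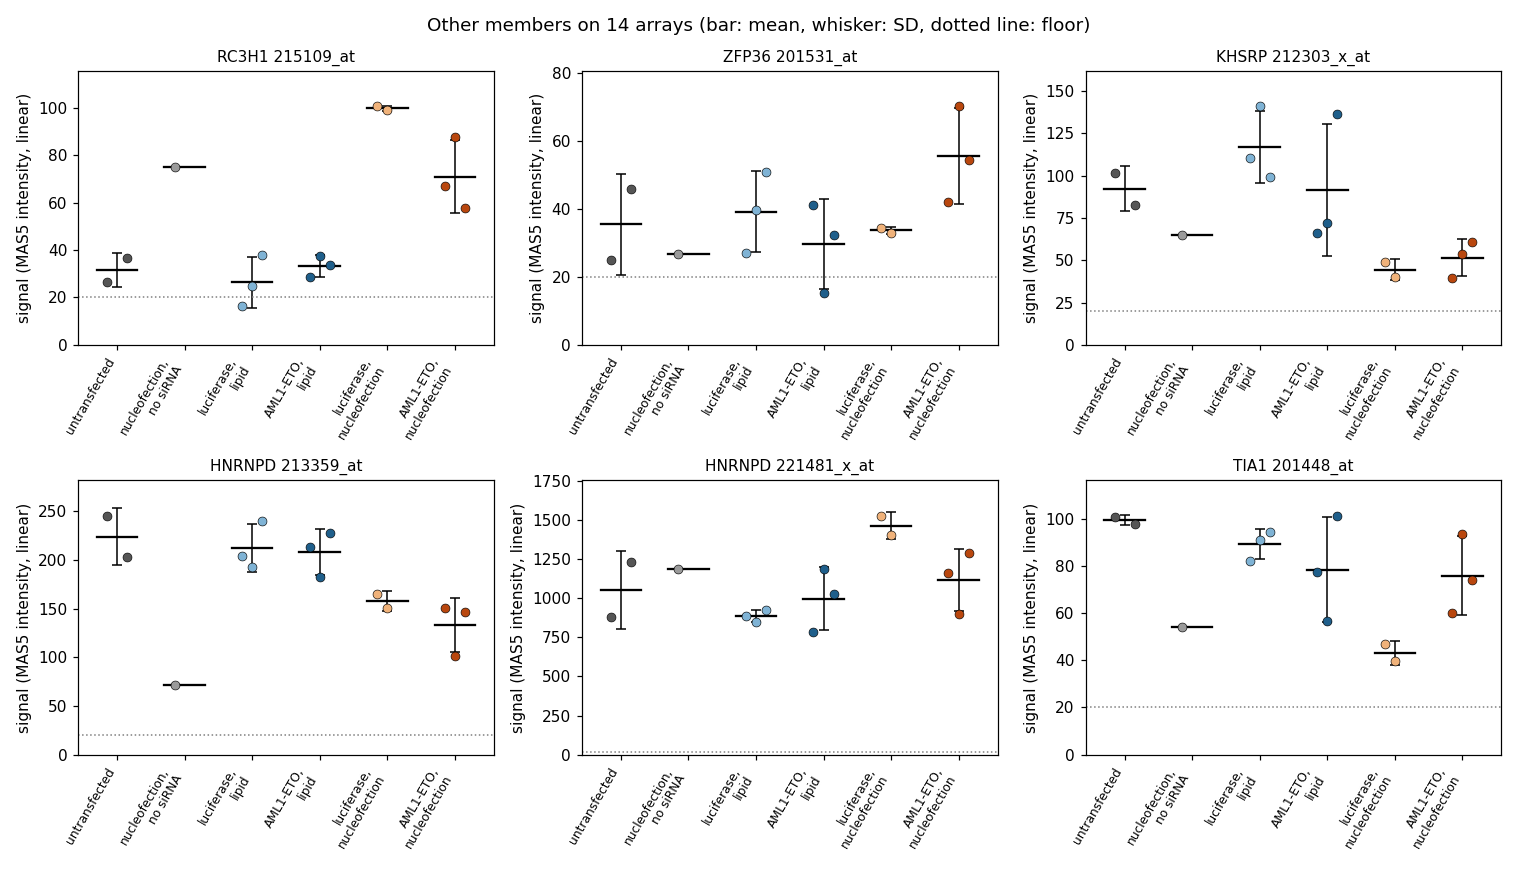
Signal of 6 probe sets of RC3H1, ZFP36, KHSRP, HNRNPD and TIA1 on each of 14 arrays (y axis, linear MAS5 intensity from 0) in the 6 groups (x axis), with the group mean as a bar, the SD as a whisker and the floor of 20 as a dotted line. RC3H1 lies at 57.9 or above on the 6 nucleofection arrays and at 37.8 or below on the 8 others.

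KHSRP, a KH domain protein that brings AU-rich mRNAs to the exosome, was not called for the knockdown. Its 3 probe sets were at −0.58 (204371_s_at, SE 0.22, adjusted p = 0.281), −0.11 (204372_s_at) and −0.11 (212303_x_at) as the mean of both methods. Between the methods 212303_x_at was higher by lipid by 1.08 (SE 0.20, adjusted p = 0.00278), a 2.11-fold difference. It read 111, 141, 99.3, 66.1, 72.1 and 136 on the 6 lipid arrays and 48.8, 40.2, 39.7, 53.7 and 61.0 on the 5 siRNA nucleofection arrays, and the methods did not overlap. The lowest lipid values were those of AML1-ETO replicates 1 and 2. Probe set 204372_s_at, with 306 to 391 by lipid and 210.4 to 304 by nucleofection, was higher by lipid by 0.40 (adjusted p = 0.0301), and was at 0.14 after quantile normalization (adjusted p = 0.435). Probe set 204371_s_at was at 0.11 and not called. The probe sets most like 204372_s_at, the KHSRP probe set of highest mean, were RALGAPB (r = 0.92), OSBP (0.91), ATP6AP1 (0.91), UBE3B (0.90) and PFN1 (0.89).

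HNRNPD, or AUF1, comes in splice forms that differ in how they affect bound mRNAs. Of its 6 probe sets, 205183_at lay below the floor on all arrays and 5 were tested. The 5 were between −0.53 and −0.11 as the mean of both methods and none was called, with unadjusted p below 0.05 for 2 of them. Probe set 200073_s_at was at −0.11 (adjusted p = 0.72), with signals of 355 to 583 over the 14 arrays. The lowest difference was that of 221480_at, at −0.53 (SE 0.16, adjusted p = 0.173) and at −0.83 by nucleofection (adjusted p = 0.108). It was dim, with 18.1, 29.8 and 11.7 on the AML1-ETO nucleofection arrays and 39.8 and 41.2 on the luciferase ones, so that 2 values stood at the floor in the fit. Probe set 209330_s_at read 255, 258 and 224 with AML1-ETO siRNA by nucleofection and 372 and 379 with luciferase siRNA, at −0.61 (SE 0.21, adjusted p = 0.148). By lipid the same probe set was at −0.03, with overlapping groups.

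Between the methods HNRNPD probe sets were called in opposite directions. Probe set 213359_at was higher by lipid by 0.54 (SE 0.14, adjusted p = 0.0145), with 182 to 240.3 by lipid and 101 to 165 by nucleofection. Probe set 221481_x_at was lower by lipid, at −0.44 (SE 0.15, adjusted p = 0.0458), with 782 to 1183 by lipid and 896 to 1523 by nucleofection. The array without siRNA read 71.7 for 213359_at, lower than all 13 others. With arrays centred on their medians 213359_at was at 0.40 (adjusted p = 0.0696). Over the 14 arrays 213359_at and 221481_x_at had an r of −0.34. Most like 221481_x_at, the HNRNPD probe set of highest mean, were TMEM40 (r = 0.87), RPL37A (0.86), MASP2 (0.83), CYP2D6 (0.82) and MAP3K9 (0.81). Which transcript each probe set reads was not analysed here, and names ending in _s_at or _x_at mark probe sets that can take signal from related transcripts.

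ELAVL1, or HuR, the stabilising binder, was not called for the knockdown with either probe set. Probe set 201726_at had a lowest signal of 355, a median of 476 and a highest of 554 over the 14 arrays. Its knockdown difference as the mean of both methods was −0.10 (95% confidence interval −0.40 to 0.19), and that of 201727_s_at was 0.06 (interval −0.19 to 0.31). The intervals leave room for changes of up to those sizes. Between the methods 201727_s_at was higher by lipid by 0.37 (adjusted p = 0.0374), with 166 to 185 by lipid and 114 to 149.5 by nucleofection, while 201726_at was at 0.03. Most like 201726_at were PCNA (r = 0.86), SRSF11 (0.85), RFK (0.85), GCSH (0.83) and MAPK1IP1L (0.82).

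TIA1, an RNA-binding protein of stress granules that silences AU-rich mRNAs, had 5 tested probe sets and none was called for the knockdown. Averaged over both methods 201446_s_at was at −0.03, 201447_at at 0.17, 201448_at at 0.29, 201449_at at −0.06 and 201450_s_at at −0.20. The difference of largest size was that of 201448_at, which by nucleofection read 60.1, 93.4 and 74.1 with AML1-ETO siRNA and 46.8 and 39.6 with luciferase siRNA (difference 0.79, SE 0.24, adjusted p = 0.11). The array without siRNA read 54.3, and untransfected cells read 100.9 and 97.9. Luciferase nucleofection was below untransfected cells by −1.21 on the log2 scale for this probe set (SE 0.26, adjusted p = 0.0239). This call was lost in 8 of 23 alternatives, with adjusted p up to 0.357. Among them were leaving out untransfected replicate 1 (0.144) or 3 (0.0985) and luciferase nucleofection replicate 1 (0.0606) or 2 (0.111). Of the other TIA1 probe sets 201447_at was at −0.74 (adjusted p = 0.0661), 201450_s_at at −0.61, 201449_at at −0.34 and 201446_s_at at −0.11 in that comparison. Most like 201446_s_at, the TIA1 probe set of highest mean, were MEX3D (r = 0.87), PTK7 (0.85), SHQ1 (0.83), MAGT1 (0.82) and WDR73 (0.80).

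**Figure D3:**
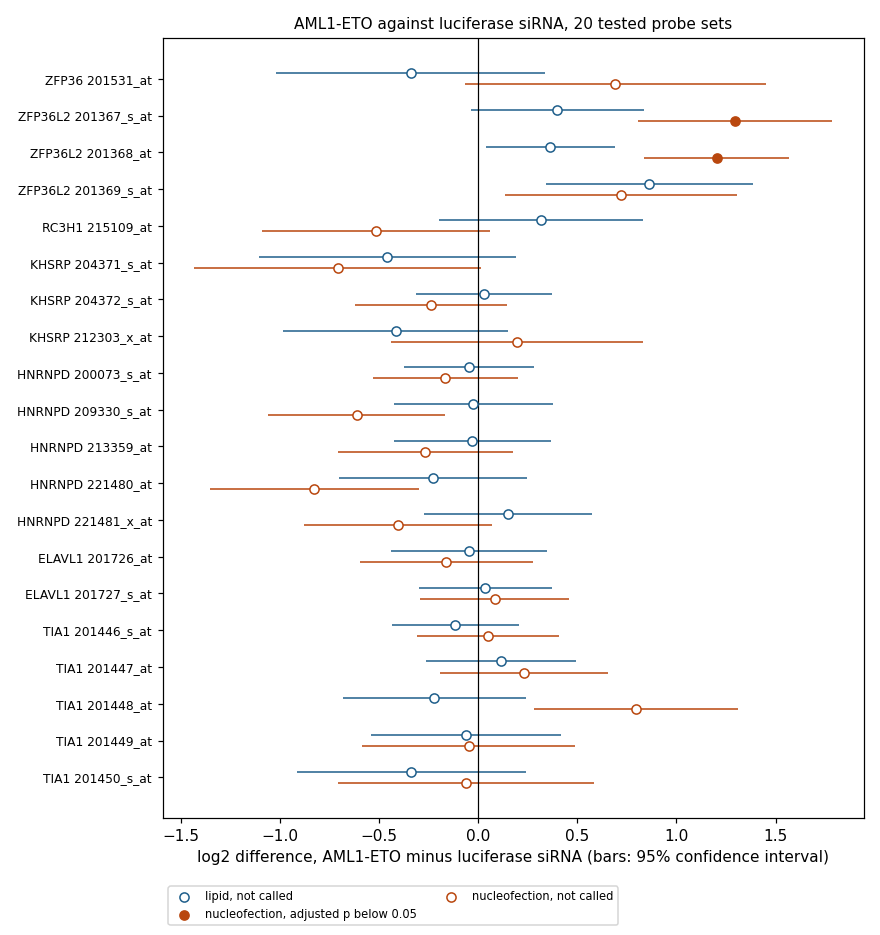
Log2 difference of AML1-ETO against luciferase siRNA (x axis) for the 20 tested member probe sets (y axis), by lipid in blue and by nucleofection in orange, with 95% confidence intervals as bars and filled points for an adjusted p below 0.05. The 2 filled points are ZFP36L2 probe sets by nucleofection, at 1.20 and 1.30.

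Against untransfected cells, 2 of 20 member probe sets were called with luciferase siRNA by nucleofection, RC3H1 higher and TIA1 201448_at lower, where 4.88% of all tested were called, 1.69% higher and 3.19% lower. With luciferase siRNA by lipid 0 of 20 were called by limma and 1 had an unadjusted p below 0.05, where 0.0075% of all tested were called. That 1 was ZFP36L2 201367_s_at, at 0.62 (adjusted p = 1). These comparisons share the luciferase arrays with the knockdown comparisons, so that a low luciferase nucleofection value enters both. On GAPDH control probe sets, the log2 ratio of 3′ to 5′ signal was 0.03 and 0.25 on the luciferase nucleofection arrays. It was between −0.18 and −0.11 on the AML1-ETO nucleofection arrays, −0.21 and −0.19 on the untransfected ones, and between −0.38 and −0.17 by lipid. On ACTB control probe sets the ratio was 0.38 and 0.84 on the luciferase nucleofection arrays. The AML1-ETO nucleofection arrays had 0.29 to 0.46, which overlapped. The summed lymphoid marker signal was 198 to 205 on the luciferase and 191 to 228 on the AML1-ETO nucleofection arrays, and 116 to 167 and 168 to 172 by lipid. Of the 5 lymphoid markers tested 1, NKG7, was called higher with the knockdown, at 1.06 (adjusted p = 0.000894). NKG7 lay below the floor on 8 arrays, those without AML1-ETO siRNA, where its signal was 2.01 at most. With AML1-ETO siRNA it read 23.8 to 39.8 by lipid and 52.2 to 55.2 by nucleofection. It passed the filter through those arrays, and the size of its difference rests on the floor. The part of the control ratios and lymphoid markers in the member differences was not tested.

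Lipid and nucleofection differed for many probe sets of the array, and the members were among them. As the mean of both siRNAs 10 of 20 members were called, 8 higher and 2 lower by lipid, where 22.6% of all tested were called, 18% higher and 4.59% lower, and the median over all tested was 0.14. The 8 higher were 2 probe sets of ZFP36L2, 2 of KHSRP, 2 of TIA1 and 1 each of HNRNPD and ELAVL1, and the 2 lower were RC3H1 and HNRNPD 221481_x_at. Most of these calls rest on the scaling, while none of the 10 changed sign in any alternative run. With each array centred on its median 4 members were called, 2 higher and 2 lower (18.3% of all tested), and with quantile normalization again 4 (14.4%), shares near the background. Of all called probe sets, 79.6% were higher by lipid as deposited, 50.5% with centred arrays and 54.3% after quantile normalization. Relative to the median, with centred arrays, ZFP36L2 201367_s_at was at 0.60, KHSRP 212303_x_at at 0.93, RC3H1 at −1.64 and HNRNPD 221481_x_at at −0.59, and these 4 were called in both scalings. The 2 TIA1 probe sets called were 201448_at at 0.54 (adjusted p = 0.0296) and 201449_at at 0.53 (adjusted p = 0.0378). Over all alternatives run, the call of HNRNPD 221481_x_at held in 12 of 24 and that of ELAVL1 201727_s_at in 12 of 23. Those of TIA1 201449_at and 201448_at held in 12 and 10 of 23, and that of KHSRP 204372_s_at in 16 of 24.

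**Figure D4:**
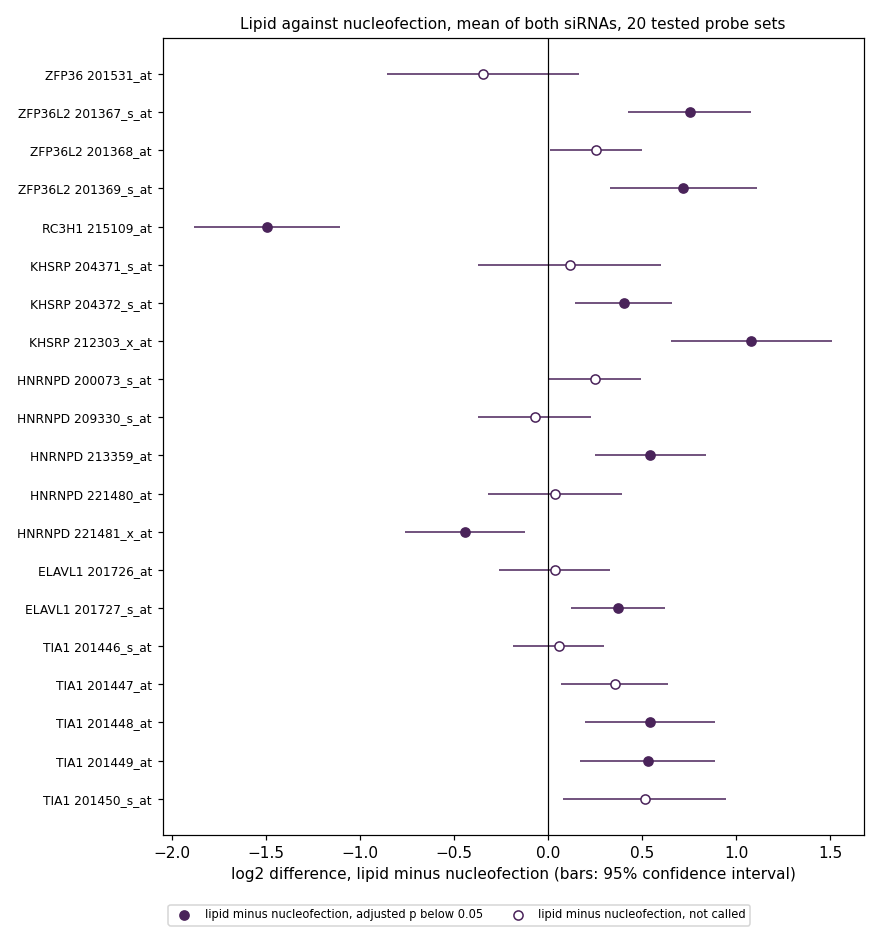
Log2 difference of lipid against nucleofection, mean of both siRNAs (x axis), for the 20 tested member probe sets (y axis), with 95% confidence intervals as bars and filled points for an adjusted p below 0.05. RC3H1 lies farthest to the left at −1.49 and KHSRP 212303_x_at farthest to the right at 1.08, while the median of all tested probe sets is 0.14.

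Leaving out luciferase lipid replicate 3 reduced the 10 calls of this comparison to 5, and the share of all tested from 22.6% to 16.5%. The members called were 6 without luciferase lipid replicate 2 (17.7% of all tested) and without AML1-ETO lipid replicate 1 (20.2%) or 3 (17.5%). They were also 6 without AML1-ETO nucleofection replicate 1 (18.3%) or 3 (17.6%). The share of all tested thus fell in these fits as well. Leaving out a luciferase nucleofection replicate left 1 array in that group. Of 6 tested fibroblast and epithelial markers 2 were called between the methods, both higher by lipid. The summed signal of the 7 fibroblast and epithelial markers was 247 to 302 on the nucleofection arrays and 416 to 483 on the lipid and untransfected arrays, with 6 of 7 at a mean of at least 20. EPCAM, an epithelial adhesion protein, was higher by lipid by 0.96 (adjusted p = 0.000483), with 71.3 to 155 on the nucleofection and 181 to 267 on the lipid and untransfected arrays. Without it the sums were 129 to 218 and 179 to 272 and overlapped. Their part in the member differences was not tested.

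The machinery that the decay factors recruit was read from lists of genes, each by its probe set of highest mean. Of 15 tested genes of CCR4-NOT and other deadenylation 1 rose with the knockdown. It was BTG1, an antiproliferative protein that binds CCR4-NOT subunits, at 0.70 (SE 0.14, adjusted p = 0.0274) as the mean of both methods and 0.92 by nucleofection (adjusted p = 0.0389). Its signal was 326 ± 33.6 (SD, n = 3) with AML1-ETO and 237 ± 46.4 (SD, n = 3) with luciferase siRNA by lipid, and 259.6 ± 27.9 (SD, n = 3) and 137 ± 14.9 (SD, n = 2) by nucleofection. The untransfected arrays read 204 and 262, and the array without siRNA 157. AML1-ETO nucleofection, at 236 to 291, overlapped the untransfected arrays, and AML1-ETO lipid, at 291 to 358, did not. The list had a median of −0.10, beside −0.07 for all probe sets tested. Of 12 decapping and 5′ decay genes, 12 of the exosome and SKI complex, 25 other binders of 3′ untranslated regions and 13 regulators of ZFP36 through the p38 and MK2 kinases and phosphatases, 0 were called for the mean of both methods. Their medians were 0.06, −0.12, −0.10 and −0.13.

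Between the methods these lists had calls that were nearly all higher by lipid on the deposited scaling, where 22.6% of all probe sets tested were called. They were 5 of 15 deadenylation genes, led by CNOT8 at 0.84 and PAN2 at 0.66, 4 of 12 decapping genes, led by DCP1A at 0.52 and EDC3 at 0.49, and 3 of 12 exosome genes, led by EXOSC7 at 0.67. Of the other binders 10 of 25 were higher, led by RC3H2 at 0.65, the paralogue of RC3H1, and KHDRBS1 at 0.62, and 1 was lower, ELAVL4 at −0.52. RC3H2 was at 0.50 with centred arrays (adjusted p = 0.0669) and at 0.53 after quantile normalization (adjusted p = 0.0796), so that its sign stayed opposite to that of RC3H1 and its call was lost. Of the ZFP36 regulators 4 of 13 were higher, led by MAPKAPK3, a p38-activated kinase, at 0.63 and PPP2CA, a catalytic subunit of protein phosphatase 2A, at 0.54. List medians were 0.32, 0.30, 0.23, 0.23 and 0.22, beside 0.14 for all. The lists hold 1 probe set a gene. With 1 probe set a gene over the whole array the median was 0.17 and 25.6% were called, 85.7% of them higher by lipid. With centred arrays, a recount added after the values were seen, 4 deadenylation genes were higher and 1 lower, and 0 decapping genes were called. Of the exosome genes 2 were higher and 1 lower, of the other binders 3 and 1, and of the regulators 2 and 1. Of all tested 18.3% were called. List medians were 0.17, 0.16, 0.08, 0.08 and 0.07, beside −0.01 for all. After quantile normalization 2 deadenylation genes, 1 decapping gene and 1 exosome gene were higher. Other binders had 2 higher and 2 lower, and 1 regulator was lower, where 14.4% of all tested were called. List medians were then 0.12, 0.06, 0.02, 0.04 and 0.01, beside 0.01 for all.

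Transcripts known for AU-rich elements, the mRNAs that these factors bind, were on the array for 41 of 49 listed genes, and 28 were tested. With the knockdown 1 of 28 fell, CXCL8, which encodes the chemokine interleukin-8, at −1.31 (SE 0.18, adjusted p = 0.00214) as the mean of both methods and −2.32 by nucleofection (adjusted p = 0.000477). Its signal by nucleofection was 165 ± 55.6 (SD, n = 3) with AML1-ETO siRNA and 795 ± 36.8 (SD, n = 2) with luciferase siRNA, and by lipid 701 ± 111 (SD, n = 3) and 872 ± 201 (SD, n = 3). On the same nucleofection arrays ZFP36L2 201368_at had means of 773 with AML1-ETO and 335 with luciferase siRNA, and by lipid of 690 and 534. Whether ZFP36L2 has a part in the CXCL8 difference was not tested. By lipid both CXCL8 groups overlapped in range, at 589 to 811 and 640 to 993. The other 27 were not called, and 20 of the 28 lay below 0, with a median of −0.14 beside −0.07 for all probe sets tested. Of 12 tested immediate early genes, the class of genes to which ZFP36 belongs, 0 were called and 12 lay below 0, with a median of −0.22. The median of all probe sets tested was itself below 0. By lipid 9 of the 12 lay below 0, with a median of −0.09 beside −0.04 for all. By nucleofection 11 did, with −0.41 beside −0.10. ZFP36, which is not among the 12, was at 0.17 as the mean of both methods.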

How the data were processed

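Total RNA from 14 Kasumi-1 samples was hybridised to single-colour oligonucleotide arrays. The deposited values are MAS5 intensities on a linear scale, 1 per probe set, made by the authors (tool per the submitters' notes on processing), and were multiplied by 1 scale factor an array, per the labels (0.488 to 1.56). The MAS5 version and settings are not given in the sources used here. Each array had a mean of 138.5, so a shift shared by most transcripts cannot be seen, and 38.3% to 44.2% of its probe sets lay below 20. The number of arrays limits the precision.

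Signals were given a floor of 20 before log2, which understates differences of dim probe sets. Control probe sets (68) were left out. The 13329 probe sets in the upper 60% by mean were fitted with limma 3.58.1 in R 4.3.3 (lmFit and eBayes, 6 group means, 8 residual degrees of freedom, prior 5.05). Adjusted p-values are Benjamini-Hochberg over all of them, with calls below 0.05. The fit was by probe set because the members have several. The mean of both methods weights lipid and nucleofection equally. Symbols come from the platform annotation, where 19065 probe sets had 1 symbol, 1043 several and 2107 none. The steps were tested on simulated data. Figures used Python 3.11.15 and matplotlib 3.10.9.

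All member probe sets are named. From each list, up to 4 called genes of largest difference were eligible to be named, and for each member the 5 probe sets of other genes with the highest correlation. RUNX1T1 was named as a check of the target. Members and lists were chosen with earlier results of these data known. The numbers of replicates did not pair the samples: over 15 pairs of arrays with the same number the deviations from group means correlated between −0.08 and 0.06. Alternatives changed the scaling, floor, filter, features, variance model, arrays fitted, replicate block, single arrays and, added after the data were seen, the control group.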

Additional observations from a re-analysis of the deposited data

Results flagged for a closer look

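The array of nucleofection without siRNA entered no comparison. On it 2 of the 20 tested member probe sets were above all untransfected and lipid arrays, as were 12.1% of all probe sets tested. RC3H1 read 75.1, against at most 37.8 on those arrays. HNRNPD 209330_s_at read 341, against at most 335. A further 10 member probe sets were below all untransfected and lipid arrays, as were 27.5% of all probe sets tested, and the 10 included all 3 of ZFP36L2. With 1 array there is no replicate check.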

How the results depend on the processing

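Counts are member probe sets called. For the knockdown as the mean of both methods, 2 were called, 1 with a floor at 64 and with 1 probe set a gene, and 0 with the untransfected arrays as controls, and 1 to 3 without single arrays. For the knockdown by nucleofection, 2 were called, 1 with a floor at 64 and with 1 probe set a gene, 0 with the arrays of that comparison alone, and 1 to 2 without single arrays. For lipid against nucleofection, 10 were called, 4 with quantile normalization and with arrays centred on their medians, 3 with a floor at 64 and with 1 probe set a gene, 6 without the filter, and 3 to 10 without single arrays. For luciferase nucleofection against untransfected cells, 2 were called, 0 with a floor at 64 and with the arrays of that comparison alone, 1 without the filter, with 1 probe set a gene and with the replicate number as a block, and 0 to 3 without single arrays. The other comparisons gave 0 throughout. For lipid against nucleofection the share of all tested that was called also moved. It was 22.6% in the main fit, 14.4% with quantile normalization and 18.3% with centred arrays. With a floor at 64 it was 6.88%, with 1 probe set a gene 25.6%, and without the filter 11.3%. With a floor at 64 the filter removed no probe set, and with 1 probe set a gene 7 members were tested. The replicate number as a block moved the member count by more than 1.5 times in no other comparison. Over the alternatives for the called probe sets and ZFP36L2 201369_s_at, 309 results kept their side of the threshold, 85 lost it, 8 gained it and none turned its sign. With all arrays and the deposited scaling, all probe sets called for the mean knockdown effect numbered 165, against 247 without the filter, 107 with the replicate block and 83 with untransfected controls. Signals near the floor limit ZFP36, HNRNPD 221480_at and TIA1 201450_s_at, and ZFP36L1 was not measurable.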
